A study of Bos taurus with 6 samples.

Results

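The amino acid transporters described here are the genes of the SLC1, SLC3, SLC7, SLC36, SLC38 and SLC43 families of solute carriers in cattle. They were chosen by gene name alone, and 41 of the 32183 entries in the expression tables carried such a name. The 41 entries stand for 40 genes, since SLC38A9 is listed as 2 separate entries. RNA was sequenced from rumen epithelial primary cells (REPC), which were grown from the rumen lining of 1 Holstein bull calf that was 2 weeks old and had been fed milk replacer only. Butyrate, a short-chain fatty acid made by rumen microbes and an inhibitor of histone deacetylases, was added to 3 cultures at 5 mM for 24 h, and 3 cultures without it served as control. All 6 cultures came from the same calf, so the p-values measure the spread between cultures and not between animals. The comparison asks how transporter RNA differs between REPC with and without butyrate.

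Cells take up and exchange amino acids through several carrier families with overlapping substrates. SLC1 proteins carry glutamate or small neutral amino acids with sodium, and SLC38 proteins carry glutamine and other neutral amino acids with sodium. Most SLC7 light chains work only when joined by a disulfide bond to an SLC3 heavy chain, which brings the pair to the plasma membrane, and these pairs exchange one amino acid for another. SLC36 proteins move small amino acids with protons, SLC43 proteins work without a heavy chain, and some members sit on the lysosome, where amino acid supply is sensed.

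Levels are given as FPKM, fragment numbers divided by transcript length and by the mapped fragments of the library, so that they can be compared between genes. Fold changes are on the log2(FPKM + 0.1) scale, where low genes show less than their true change. The limma test took in all 15813 genes whose FPKM averaged 0.1 or more. A gene is said to have risen or fallen where the Benjamini-Hochberg adjusted p was below 0.05. Summed over all genes, control cultures held 678035 to 681912 FPKM and butyrate cultures 619401 to 629037, and the median log2 fold change of all genes tested was 0.10. The confidence bounds in the tables imply between 5756609 and 6186809 effective fragments per culture. The cultures held RNA of epithelial markers, with mean KRT5 levels of 401 FPKM in control against 356 with butyrate, and of fibroblast markers, with VIM at 2464 and 3641. Of 17 epithelial markers 12 rose, among them KRT14 from a mean of 72.5 to 500 and KRT19 from 492 to 1953. KRT5 was the 1 that fell, and 4 did not pass. The summed FPKM of the epithelial list ranged from 7127 to 7420 in control and from 10170 to 10500 after butyrate. Of 12 fibroblast markers, of which 11 were tested, 10 rose and 1 did not pass. The 10 include COL6A3, which was at 0, 0.0197 and 0 in control. It reached the mean of 0.1 only through its butyrate values and had to differ. The fibroblast sum ranged from 4474 to 4622 in control and from 6509 to 6847 after butyrate. These marker counts stand beside 32.5% of all genes tested that rose and 25.9% that fell. Of 5 smooth muscle markers 4 fell and 1 rose, and their sum ranged from 6468 to 6796 and from 2849 to 3456. Summed leukocyte markers ranged from 5.20 to 7.15 in control and from 7.70 to 9.60 after butyrate. Of 8 leukocyte markers 2 were tested, of which CD68 rose and CD14 did not pass, and PTPRC and LYZ were at 0. Summed endothelial markers ranged from 1.97 to 2.16 in control and from 6.48 to 8.43 after butyrate. Of 5 endothelial markers 2 were tested, VWF and PECAM1, which rose, and CDH5 was at 0. Mean VWF was 0.456 in control and 3.3 after butyrate, and mean PECAM1 1.54 and 3.95. The part of these marker changes in the transporter values was not tested, and fewer cells of a type and less RNA per cell cannot be told apart in bulk RNA.

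Of the 41 entries, 30 were tested, of which 16 rose, 6 fell and 8 did not pass the test. Over all genes tested, 32.5% rose and 25.9% fell, so a call in either direction is common in these cultures. The 16 and 6 entries are 53.3% and 20% of the 30 tested. Of all 41 entries they are 39.0% and 14.6%, where 16% and 12.7% of all listed genes rose and fell. With a further limit of a 2-fold change on the log2(FPKM + 0.1) scale, 11 entries rose and 3 fell, or 36.7% and 10% of those tested, where the background over all genes tested was 17.2% and 8.04%. With the thresholds of the study, a Bonferroni-corrected p below 0.05 and a log2 fold change beyond 2, 4 entries passed, all of which rose, where 2.46% of all genes tested rose and 1.51% fell. They were SLC43A3, SLC7A10, SLC7A4 and SLC7A7, and their count depended on the processing, being 0 with a pseudocount of 1. SLC7A10 was listed at 0 in all control cultures, so its fold, and with it its place among the 4, was set by the pseudocount. The median log2 fold change of the 30 entries was 0.49. This median and the counts are descriptive, because 4 of the 30, SLC1A3, SLC7A10, SLC38A3 and SLC38A4, had a control mean below an FPKM of 0.1 and passed the filter only through their butyrate values. These 4 had to differ. They are counted among the 16 rises, the 11 of at least 2-fold and the rises of their families, so these shares hold rises fixed in advance. SLC7A10 is also among the 4 past the thresholds of the study. The members so affected are given below with their values and no test. The groups of 21 of the 30 entries did not overlap, and this held for 65.0% of all genes tested.

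The other 11 entries were too low to be tested, and the highest FPKM of any of them in any culture was 0.174. SLC1A6, SLC7A3, SLC7A13, SLC7A14 and SLC38A11 were listed at 0 in all 6 cultures. SLC1A2, SLC1A7, SLC7A9, SLC36A2, SLC36A3 and SLC38A8 were listed above 0 in at least 1 culture.

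**Figure D1:**
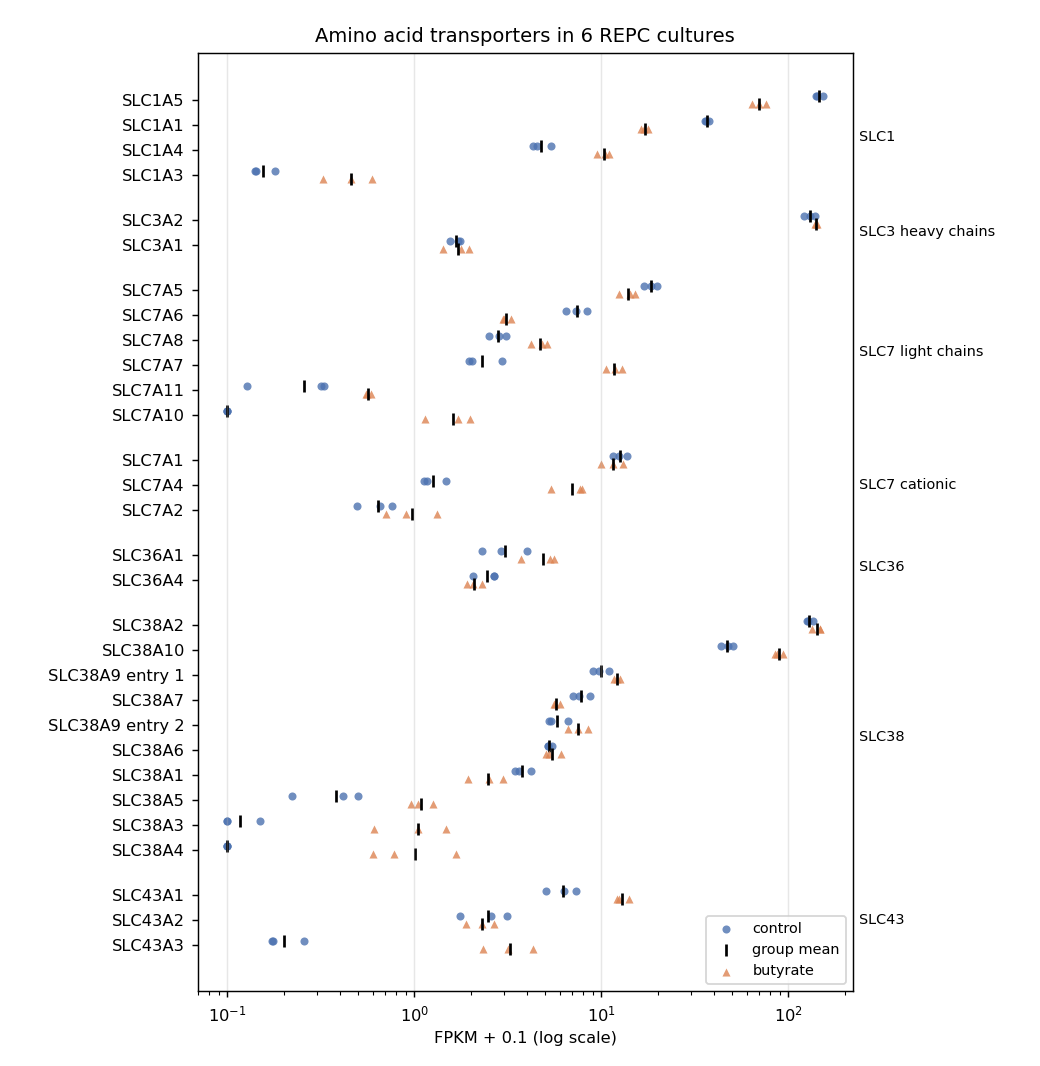
FPKM of the 30 tested amino acid transporters in each of the 3 control and 3 butyrate cultures, on a log scale after adding 0.1, grouped by family. SLC1A5, SLC3A2 and SLC38A2 lie highest in control, and SLC1A5 drops from a mean of 145 to 69.8 after butyrate.

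A few genes held most of the transporter RNA. The summed FPKM of all entries was 586 ± 9.53 in control and 587 ± 16.2 after butyrate (SD, n = 3), so that the total stayed within the spread while its makeup moved. SLC1A5, SLC38A2 and SLC3A2 together made up 69.1% ± 0.818 of the sum in control and 60.3% ± 1.24 after butyrate. Of the summed FPKM of all genes, which was lower after butyrate, the transporters took 0.0862% ± 0.00147 in control and 0.094% ± 0.00321 after butyrate. In control the order of the mean levels was SLC1A5, SLC3A2, SLC38A2, SLC38A10 and SLC1A1, and after butyrate it was SLC38A2, SLC3A2, SLC38A10, SLC1A5 and SLC1A1. The values of SLC3A2 and SLC38A2 overlapped within each group, so their order does not exceed the spread between cultures. The other steps of these orders did not overlap between neighbours.

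The SLC1 family was the one whose total dropped, with a summed FPKM of 187 ± 7.11 in control and 97.4 ± 6.11 after butyrate. Its share of all transporter FPKM was 31.8% and 16.6%. The fall came from its top pair of genes, while the lower pair was higher after butyrate. Of 7 SLC1 entries, 4 were tested, of which 2 rose and 2 fell.

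SLC1A5 (ASCT2), the sodium-dependent exchanger of glutamine and other neutral amino acids, lies at chr18:54302387-54331234 of the UMD3.1 build. Its FPKM was 141, 142 and 153 in the control cultures and 76.3, 63.8 and 69.4 in the butyrate cultures. Every butyrate culture was thus far below every control culture. The log2 fold change was -1.06 with an SE of 0.071 (limma, adjusted p = 3.8e-06). SLC1A1 (EAAC1), a high-affinity carrier of glutamate, aspartate and cysteine at chr8:40180179-40253112, changed by a like amount. It was at 37.5, 35.7 and 36.3 in control and at 16.3, 16.9 and 17.6 after butyrate, with an SD of 0.905 and 0.678. SLC1A1 fell by 1.11 on the log2 scale with an SE of 0.065 (limma, adjusted p = 1.7e-06).

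SLC1A4 (ASCT1), a close relative of SLC1A5 that exchanges alanine, serine, cysteine and threonine, rose. Its FPKM was 4.23, 4.44 and 5.30 in control and 10.9, 10.3 and 9.43 after butyrate. The groups lay far apart, with a log2 fold change of 1.12 and an SE of 0.12 (limma, adjusted p = 7.3e-05). The FPKM of SLC1A5 was 33.2, 32.1 and 28.9 times that of SLC1A4 in control and 6.98, 6.17 and 7.36 times after butyrate. SLC1A3 (GLAST), a glutamate carrier best known from glia, was barely detected. It was at 0.0801, 0.0425 and 0.041 in control and at 0.223, 0.494 and 0.358 after butyrate. The bounds imply about 4, 2 and 2 fragments in control and 9.59, 22 and 16 after butyrate. SLC1A3 passed the filter only through its butyrate values, so no test is given.

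The SLC3 heavy chains did not pass the test. SLC3A2 (4F2hc, also called CD98), the partner of most light chains expressed here, was at 122, 131 and 138 in control and at 143, 141 and 139.6 after butyrate. The butyrate cultures were all higher than the control cultures, by little. The log2 fold change was 0.12 with an SE of 0.054 (limma, adjusted p = 0.094). SLC3A2 passed the test when every culture was scaled to the same summed FPKM, with a log2 fold change of 0.24 and an adjusted p of 0.0045, after quantile normalization, with 0.26 and 0.0037, and without control replicate 3, with 0.16 and 0.035, and over all alternatives the adjusted p ranged up to 0.27. SLC3A1 (rBAT), the heavy chain of the cystine and dibasic amino acid exchanger, was at 1.65, 1.44 and 1.62 in control and at 1.86, 1.32 and 1.68 after butyrate. Its groups overlapped (log2 fold change 0.03, SE 0.20, limma adjusted p = 0.91), and the direction turned to -0.38 after quantile normalization. Its known partners SLC7A9 and SLC7A13 were at or near 0.

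**Figure D2:**
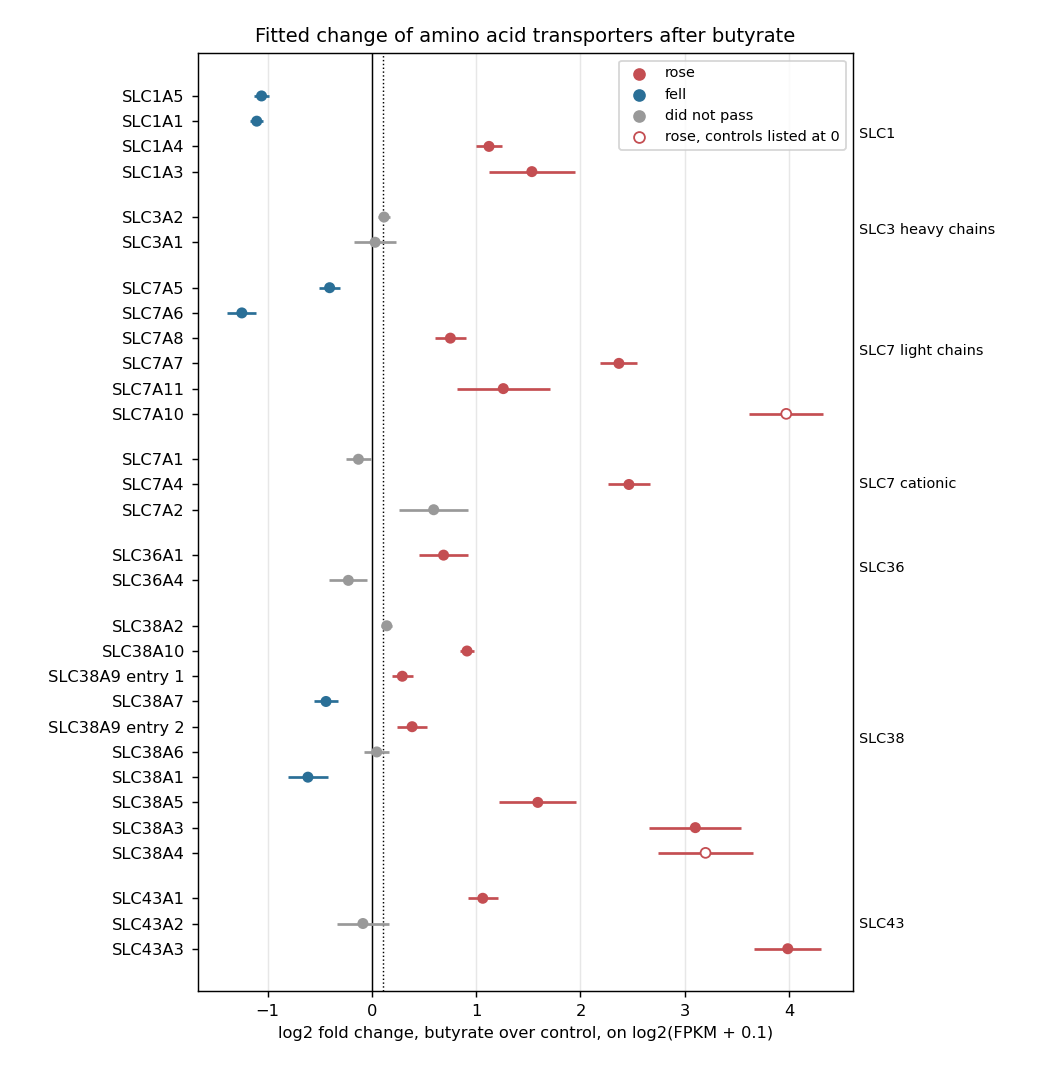
Log2 fold change of each tested transporter, butyrate over control, on log2(FPKM + 0.1), with bars of 1 SE and the median of all genes tested as a dotted line at 0.10. Open circles mark SLC7A10 and SLC38A4, which are listed at 0 in all control cultures, so that their position depends on the pseudocount. SLC7A6, SLC1A1 and SLC1A5 lie farthest to the left.

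The SLC7 light chains changed in both directions. Of 8 light chain entries, which include the SLC3A1 partners SLC7A9 and SLC7A13, 6 were tested, of which 4 rose and 2 fell. Their summed FPKM was 30.7 ± 2.45 in control and 35.1 ± 0.789 after butyrate. SLC3A2 stood at 4.26 ± 0.187 times the summed light chains in control and at 4.02 ± 0.0509 times after butyrate.

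The y+L light chains crossed over. SLC7A6 (y+LAT2) and SLC7A7 (y+LAT1) both exchange cationic amino acids such as arginine and lysine for neutral amino acids with sodium, and SLC7A7 is the form known from the basolateral side of absorbing epithelia. SLC7A6, at chr18:35763536-35793351, was at 6.34, 8.28 and 7.23 in control and at 2.88, 3.20 and 2.91 after butyrate, a log2 fold change of -1.25 (SE 0.14, limma adjusted p = 7.8e-05). SLC7A7, at chr10:21827199-21864024, was at 1.93, 1.85 and 2.85 in control and at 11.7, 12.8 and 10.5 after butyrate. Every control culture had more SLC7A6 than SLC7A7, and every butyrate culture had less. The log2 fold change of SLC7A7 was 2.37 with an SE of 0.18 (limma, adjusted p = 7.4e-06), and its mean FPKM was 5.28-fold higher. The ratio of SLC7A6 to SLC7A7 was 3.28, 4.48 and 2.54 in control and 0.247, 0.25 and 0.276 after butyrate.

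The system L light chains, which carry large neutral amino acids such as leucine, moved closer to each other. SLC7A5 (LAT1), the form common in dividing cells, was at 16.8, 19.7 and 18.4 in control and at 15.0, 12.3 and 14.1 after butyrate. SLC7A5 fell by 0.41 on the log2 scale with an SE of 0.10 (limma, adjusted p = 0.0078). SLC7A8 (LAT2), the form common in epithelia, was at 2.74, 2.41 and 2.98 in control and at 4.12, 4.72 and 5.04 after butyrate. It rose by 0.75 with an SE of 0.15 (limma, adjusted p = 0.0025), and neither gene's groups overlapped. SLC7A5 stayed the higher of the pair in all 6 cultures, at 6.85 ± 1.17 times SLC7A8 in control and 3.02 ± 0.549 times after butyrate.

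**Figure D3:**
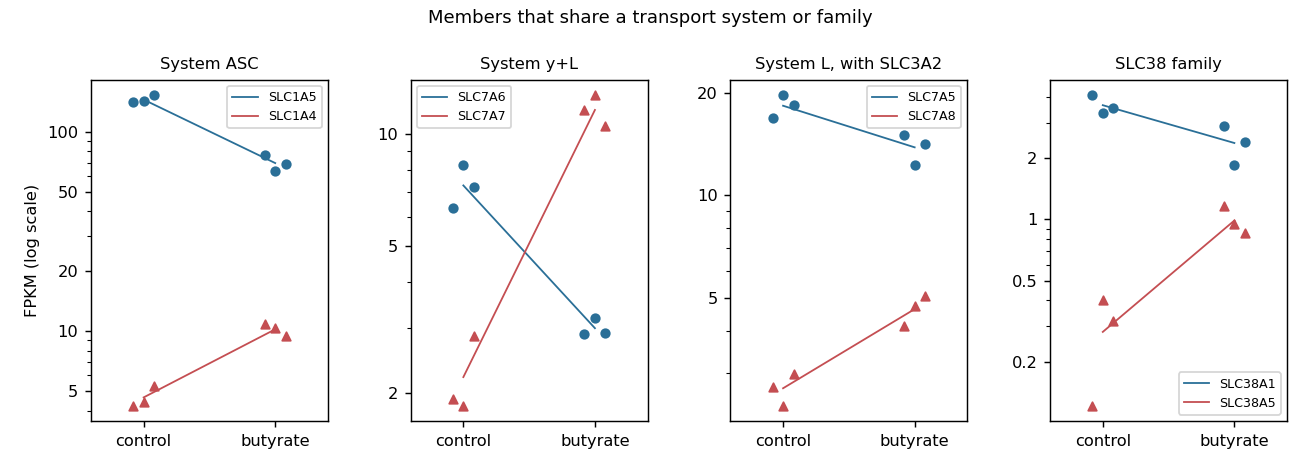
FPKM on a log scale in each control and butyrate culture for 4 pairs of transporters with related substrates, with lines joining the group means. SLC7A6 and SLC7A7 cross between control and butyrate, whereas SLC1A5 stays above SLC1A4, SLC7A5 above SLC7A8 and SLC38A1 above SLC38A5.

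SLC7A10 (Asc-1), which exchanges small neutral amino acids including D-serine, was listed at 0 in all 3 control cultures and at 1.61, 1.90 and 1.04 after butyrate. The bounds imply about 14, 18.9 and 9 fragments in the butyrate cultures, and neither a fold nor a test is given against the listed 0. SLC7A11 (xCT), the cystine and glutamate exchanger that feeds glutathione synthesis, was low in every culture. It was at 0.0266, 0.227 and 0.217 in control and at 0.483, 0.461 and 0.451 after butyrate, from about 1, 8 and 8 against 16, 14.7 and 14.7 fragments. The groups did not overlap, and the log2 fold change was 1.26 with an SE of 0.45 (limma, adjusted p = 0.038). The call was lost without control replicate 1, with a log2 fold change of 0.81 and an adjusted p of 0.060. It was also lost without butyrate replicates 1, 2 and 3, where the adjusted p was 0.089, 0.084 and 0.080 while the log2 fold change stayed at 1.24, 1.27 and 1.28. Over all alternatives the adjusted p ranged from 0.025 to 0.36.

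Of 5 entries for the cationic SLC7 transporters, which work without a heavy chain, 3 were tested, of which 1 rose and 2 did not pass. SLC7A1 (CAT1), the widely used carrier of arginine and lysine, was at 11.5, 12.3 and 13.6 in control and at 12.97, 11.4 and 9.85 after butyrate, with overlapping groups (log2 fold change -0.13, SE 0.12, limma adjusted p = 0.38). SLC7A2 (CAT2) was at 0.536 ± 0.136 in control and 0.876 ± 0.315 after butyrate and did not pass (log2 fold change 0.59, limma adjusted p = 0.15).
SLC7A4 belongs to the same branch, though its transport activity is not established. It was at 1.02, 1.38 and 1.07 in control and at 7.75, 5.30 and 7.59 after butyrate, so that the lowest butyrate culture was well above the highest control culture. SLC7A4 rose by 2.47 on the log2 scale with an SE of 0.20 (limma, adjusted p = 1.3e-05). The entry spans chr17:74366170-74370306 and overlaps that of PRODH, the first enzyme of proline breakdown, whose mean FPKM was 8.03 in control and 54.1 after butyrate. No source used here states that strand was used in counting, so reads of SLC7A4 and PRODH cannot be told apart where they overlap.

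The SLC38 family held the largest share of transporter FPKM both in control and after butyrate. Its summed FPKM was 209 ± 10.4 in control and 267 ± 3.62 after butyrate, or 35.6% and 45.5% of the transporter sum. Of 12 entries, 10 were tested, of which 6 rose, 2 fell and 2 did not pass.

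SLC38A10, one of the less studied family members, held the largest gain in FPKM of the family. It lies at chr19:52045201-52086311 and was at 50.2, 47.3 and 43.7 in control and at 87.4, 93.7 and 84.8 after butyrate. The log2 fold change was 0.91 with an SE of 0.067 (limma, adjusted p = 6.5e-06), and the groups were far apart. Its share of the transporter sum was 8.04% ± 0.661 in control and 15.1% ± 1.03 after butyrate.

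The system A genes take up alanine, glutamine and other small neutral amino acids at the plasma membrane. SLC38A2 (SNAT2), the form known to respond to amino acid shortage, was at 136, 125 and 127 in control and at 147, 134 and 147 after butyrate. One butyrate culture lay below the highest control culture, and the log2 fold change of 0.14 (SE 0.055) missed the threshold (limma, adjusted p = 0.052). SLC38A2 passed under 6 of the alternatives run, with adjusted p-values of 0.022 without butyrate replicate 2, 0.039 without control replicate 1 and 0.0031 when scaled to the same sum, and the highest adjusted p over the alternatives was 0.17.
SLC38A1 (SNAT1) lies 80886 bases from SLC38A2 and was at 4.09, 3.33 and 3.53 in control and at 2.89, 1.85 and 2.41 after butyrate. It fell by 0.61 on the log2 scale (SE 0.19, limma adjusted p = 0.024). The log2 fold change kept its direction, between -0.64 and -0.45, where the call was lost. The adjusted p was then 0.072 and 0.064 without butyrate replicates 2 and 3, 0.087 and 0.058 without control replicates 1 and 3, and 0.056 when scaled to the same sum, with a lowest value over the alternatives of 0.0064. SLC38A4 (SNAT4), best known from the liver, was listed at 0 in all control cultures and at 0.500, 1.56 and 0.680 after butyrate, from about 21.7, 35.3 and 20.7 fragments.

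The system N genes, which carry glutamine, histidine and asparagine, were very low in control. SLC38A3 (SNAT3) was at 0.0491, 0 and 0 in control, the first from about 1 fragment, and at 1.38, 0.506 and 0.952 after butyrate, from about 29, 11.9 and 20 fragments. Its fitted log2 fold change depended on the pseudocount, being 5.61 with 0.01 and 0.91 with 1, and is no estimate of its size. SLC38A5 (SNAT5), on chromosome X, was at 0.121, 0.401 and 0.317 in control and at 1.16, 0.948 and 0.856 after butyrate. All butyrate cultures were above all control cultures (log2 fold change 1.59, SE 0.37, limma adjusted p = 0.0056), and the adjusted p ranged from 0.0023 to 0.055 over the alternatives, with the highest after quantile normalization.

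Lysosomal members of the family changed in both directions. SLC38A9, the lysosomal arginine sensor that signals to mTORC1, is listed as 2 entries 12161 bases apart on chromosome 20. The first was at 10.9, 9.58 and 8.95 in control and at 12.4, 12.0 and 11.6 after butyrate. The second was at 6.56, 5.27 and 5.15 in control and at 7.39, 6.49 and 8.37 after butyrate, with overlapping groups. Both rose in the limma test, with log2 fold changes of 0.29 (SE 0.099, adjusted p = 0.033) and 0.39 (SE 0.14, adjusted p = 0.045).
These calls were close to the threshold, and where they were lost with a culture left out the log2 fold change stayed between 0.23 and 0.32 for the first entry and between 0.30 and 0.38 for the second. For the first entry the adjusted p was 0.091, 0.077 and 0.058 without butyrate replicates 1, 2 and 3 and 0.086 and 0.098 without control replicates 2 and 3. For the second it was 0.11 and 0.16 without butyrate replicates 1 and 3 and 0.13 and 0.14 without control replicates 2 and 3. The second entry also lost its call with no filter, without the trend, after quantile normalization and with a replicate block. Its adjusted p was then 0.066, 0.067, 0.105 and 0.056. SLC38A7 (SNAT7), which exports glutamine from lysosomes, was at 7.47, 8.63 and 6.997 in control and at 5.54, 5.88 and 5.47 after butyrate. The groups did not overlap, and SLC38A7 fell by 0.44 on the log2 scale (SE 0.12, limma adjusted p = 0.011). SLC38A6, an orphan member, did not pass (log2 fold change 0.05, limma adjusted p = 0.77).

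The SLC36 genes encode proton-coupled carriers of glycine, alanine and proline. SLC36A1 (PAT1) was at 3.89, 2.20 and 2.80 in control and at 5.48, 5.22 and 3.64 after butyrate. The groups overlapped, and the log2 fold change was 0.69 with an SE of 0.24 (limma, adjusted p = 0.035). The call was lost, with log2 fold changes between 0.50 and 0.67, without 4 of the 6 cultures. The adjusted p was 0.14 and 0.14 without butyrate replicates 1 and 2 and 0.12 and 0.10 without control replicates 2 and 3. The call was also lost with no filter (adjusted p = 0.068), without the trend (0.071) and after quantile normalization (0.086). The lowest adjusted p over the alternatives was 0.017. SLC36A4 did not pass (log2 fold change -0.23, limma adjusted p = 0.32).

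The SLC43 genes summed to 8.60 ± 1.007 FPKM in control cultures and 18.1 ± 2.28 FPKM with butyrate. Of the 3 genes, 2 rose. SLC43A1 (LAT3), a facilitative carrier of leucine and other branched-chain amino acids, was at 4.96, 6.18 and 7.22 in control and at 14.0, 12.4 and 12.0 after butyrate. The groups did not overlap, and the log2 fold change was 1.06 with an SE of 0.14 (limma, adjusted p = 0.00026). The entry overlaps LOC107131235, which averaged 3.14 FPKM without and 5.47 with butyrate, and reads of both cannot be told apart in the shared stretch. Against SLC43A1, SLC7A5 was at 3.05 ± 0.44 times in control and at 1.08 ± 0.092 times after butyrate.
SLC43A3, known as a carrier of purine nucleobases in place of amino acids, lies 53768 bases from SLC43A1 on chromosome 15. Its FPKM was 0.0731, 0.157 and 0.0761 in control and 4.19, 3.05 and 2.22 after butyrate. The bounds imply about 1, 2 and 1 fragments in control and 57.3, 47.5 and 31 after butyrate, so the control level is poorly known. The log2 fold change was 3.99 with an SE of 0.32 (limma, adjusted p = 1.2e-05), and it was 4.85 with a pseudocount of 0.01 and 1.89 with a pseudocount of 1. SLC43A2 (LAT4) did not pass (log2 fold change -0.09, limma adjusted p = 0.79).

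**Figure D4:**
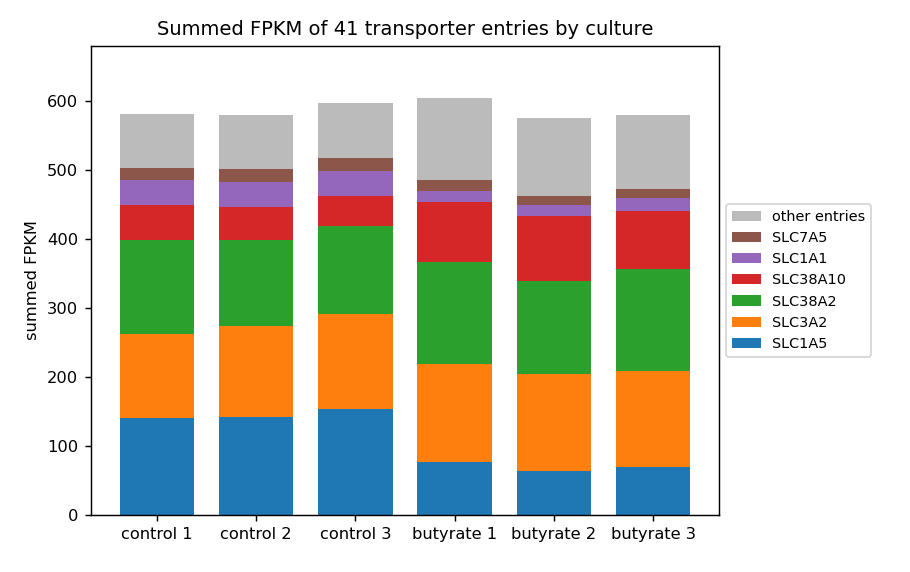
Summed FPKM of the amino acid transporters in each culture, as stacked bars starting at 0. The parts are SLC1A5, SLC3A2, SLC38A2, SLC38A10, SLC1A1, SLC7A5 and all other entries together. The SLC1A5 part shrinks from a mean of 145 to 69.8 and the SLC38A10 part grows from 47.1 to 88.6, while the whole bar stays near 586.

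Genes around these carriers were read from 6 lists with 110 genes found, of which 99 were tested, 35 rose and 26 fell. These are 35.4% and 26.3% of those tested, close to the 32.5% and 25.9% of all genes tested, which are also the background for the counts of each list. Among 20 other amino acid and peptide carriers found, 11 were tested, of which 2 rose and 1 fell. SLC17A7 (VGLUT1), the vesicular glutamate carrier, was at 0.407, 0.328 and 0.158 in control and at 31.6, 33.1 and 27.9 after butyrate (log2 fold change 6.34, limma adjusted p = 2.0e-07). SLC6A9 (GLYT1), a glycine carrier, rose by 0.83, and SLC15A1 (PEPT1), the proton-coupled carrier of small peptides, fell by 1.36 on the log2 scale. Among 8 mitochondrial amino acid carriers found, 7 were tested, 1 rose and 3 fell. SLC25A29, a carrier of basic amino acids, rose by 0.86, while the aspartate and glutamate carriers SLC25A13 and SLC25A12 had log2 fold changes of -0.79 and -0.34 and the ornithine carrier SLC25A15 one of -0.28.

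Of 30 genes found for amino acid sensing by mTORC1, 9 rose, 8 fell and 13 did not pass. The Rag GTPase genes RRAGD and RRAGB rose by 1.24 and 0.89 and TSC2, an inhibitor of the pathway, by 0.93 on the log2 scale. SEH1L and SEC13, shared by the GATOR2 complex and the nuclear pore or vesicle coat, had log2 fold changes of -1.40 and -0.62, and MLST8, a subunit of the mTOR complexes, one of -0.91. Of 30 enzymes of amino acid synthesis and breakdown found, 29 were tested, of which 11 rose and 11 fell. PRODH rose by 2.73, ASS1, the citrulline-using enzyme of arginine synthesis, by 2.34 and GPT2, the mitochondrial alanine transaminase, by 1.38. CTH, which makes cysteine from cystathionine, had a log2 fold change of -2.19, BCAT1, the cytosolic branched-chain transaminase, one of -1.19 and SHMT2, the mitochondrial serine hydroxymethyltransferase, one of -0.69.

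Of 13 genes found for the ATF4 response, through which amino acid shortage raises several carrier genes, 7 rose and 1 fell. Its kinase genes EIF2AK4 (GCN2), EIF2AK3 and EIF2AK1 did not pass. Which kinase acted, if any, was not tested. ATF4 itself was at 199, 199 and 216 in control and at 237, 222 and 227 after butyrate, a log2 fold change of 0.16 (SE 0.048, limma adjusted p = 0.020). TRIB3, CHAC1 and DDIT3, which are induced in this response, rose by 2.15, 1.41 and 1.18, and EIF2S1, the translation factor whose phosphorylation starts it, had a log2 fold change of -0.24. Of 9 genes for glutathione synthesis from cystine and its use, 5 rose and 2 fell. The gamma-glutamyltransferase family genes GGT7 and GGT5 rose by 4.99 and 2.58. GGT1 was listed at 0 in all control cultures and at 7.18, 6.91 and 6.27 after butyrate. GGT1 passed the filter only through its butyrate values and had to differ. It is counted among these 5 rises and among the 35 of all lists. GCLM, the modifier subunit of the rate-limiting enzyme, and GSR, which recycles glutathione, had log2 fold changes of -0.90 and -0.62.

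**Figure D5:**
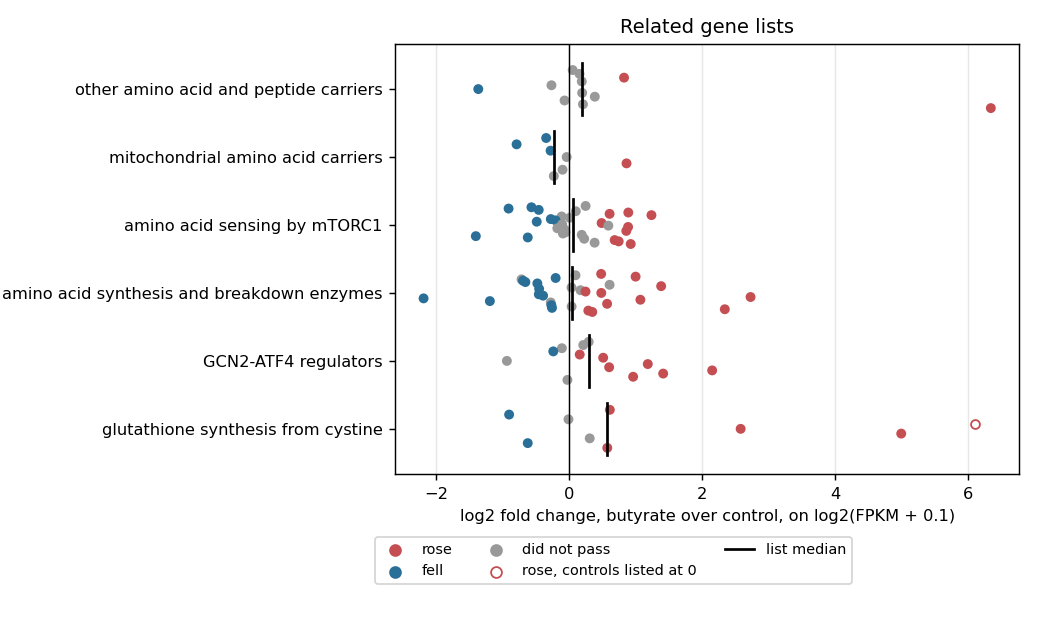
Log2 fold change of each tested gene in 6 related gene lists, butyrate over control, on log2(FPKM + 0.1), with the list median as a black bar. Open circles mark genes listed at 0 in all control cultures, and the list medians lie between -0.23 for the mitochondrial carriers and 0.57 for the glutathione list.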

How the data were processed

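RNA from 6 REPC cultures was measured, and groups and replicate numbers came from the sample labels. The authors deposited gene-level FPKM with a lower and an upper confidence bound for each culture. The submitters' processing notes name Trim Galore 0.4.1, STAR, Cufflinks and the UMD3.1 build, and the versions of STAR and Cufflinks are not given in the sources used here. Entries were joined by position, and starts, which count from 0 in the tables, were raised by 1. The tables flag 2 genes with failed estimates, which were dropped and include no transporter. The log2(FPKM + 0.1) values of every gene averaging 0.1 FPKM or more entered a limma fit (limma 3.58.1, R 4.3.3) whose prior variance followed the mean level, with Benjamini-Hochberg adjustment over all of them. Treatment was the sole term. The script was tested on simulated data. FPKM is not a count, so no count test was run. Fragment numbers were read from the bounds, taken as the FPKM plus or minus 2 standard errors of a Poisson count, and cover counting error only. With 3 cultures per group, an exact permutation test of a single gene cannot go below p = 0.1.

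The text names every transporter past the test with a log2 fold change beyond 1, every transporter with a mean FPKM of at least 10 in either group, both heavy chains, the tested light chains, the 3 largest changes past the test per direction in each related list, and ATF4. Other transporters are named to account for all of them. The transporters, lists, pairs and tests were chosen with earlier results of these data known. Alternatives were other pseudocounts, filters and scalings, no trend, a replicate block and each culture left out. Replicate numbers did not pair the cultures.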

Additional observations from a re-analysis of the deposited data

How the results depend on the processing

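The counts of transporters that rose and fell ranged from 11 to 18 and from 5 to 7 over all alternatives run. Over the same alternatives, 25.6% to 37.6% of all genes tested rose and 19.7% to 32.7% fell. With a mean FPKM of at least 1, 23 transporters were tested, of which 11 rose and 6 fell. In that setting 33.5% and 32.7% of all genes tested rose and fell. The count of rises of at least 2-fold was 11 and became 5 with a mean FPKM of at least 1 and 4 with a pseudocount of 1, and that of falls was 3 and became 1 after scaling to the same sum. The count by the thresholds of the study was 4 and became 0 with no filter, 0 without the trend, 2 with a pseudocount of 0.01, 0 with a pseudocount of 1, 1 after quantile normalization and between 0 and 1 with each culture left out. The median log2 fold change of 0.49 became 0.12 with a mean FPKM of at least 1, 0.31 with a pseudocount of 1 and 0.29 after quantile normalization. The median of all genes tested, 0.10 at first, was 0.00215, 0.0698 and -0.025 under these settings in turn. Shares of all genes for the 2-fold and study counts under the alternatives are not given here. The cause of these moves was not tested. Scaling to the same sum moved the median of all genes by 0.12 and quantile normalization by -0.13.

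Of the 30 tested transporters, 16 kept their call and direction under every alternative that gave them a value, of which 10 rose, 5 fell and 1 did not pass. SLC7A10, SLC38A3 and SLC38A4 are among the 10 but passed the filter only through their butyrate values, so their kept calls give no support. They were also not tested with a mean FPKM of at least 1, so 13 transporters kept their call under all 14 alternatives. Direction turned in 4 transporters that did not pass, which were SLC38A6 (-0.066 after quantile normalization, -0.037 to 0.10 with each culture left out), SLC3A1 (-0.38 after quantile normalization, -0.071 to 0.16 with each culture left out), SLC43A2 (0.032 after scaling to the same sum, -0.32 to 0.10 with each culture left out) and SLC7A2 (-0.032 after quantile normalization). Same-numbered control and butyrate cultures had correlations of 0.0228, -0.00431 and 0.00177 between their deviations from the group means, and 2 of 6 cultures correlated best with their own number. With the replicate number as a block, 15 transporters rose, 6 fell, 10 rose at least 2-fold and 0 passed the thresholds of the study. Of all genes tested, 31.3% rose and 25.4% fell with this block. The depth limits genes with few fragments, such as SLC7A11, SLC1A3 and the control level of SLC43A3.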
